A study of Mus musculus with 10 samples.

Results

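Interferon-stimulated genes are the genes that cells switch on when an interferon binds its receptor, and 45 of them were followed here in CA3, the field of the mouse hippocampus between the dentate gyrus and CA1. The 45 genes were chosen by name, as transcription factors, nucleic acid sensors, antiviral effectors and immunity GTPases known to be interferon-induced. The choice was made with earlier results of these data known. All 45 were found among the 18453 genes of the deposited count tables, and all 45 passed the filter on low counts that left 14393 genes for testing.

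The 10 RNA-seq libraries came from C57BL/6J mice, labelled male although the injection protocol speaks of both sexes, whose CA3 was injected on both sides with adeno-associated virus (AAV). For 5 of them the AAV delivered an shRNA (a short hairpin that degrades its matching messenger) directed at Mef2c, which encodes a transcription factor of neurons and microglia. For the remaining 5 the hairpin was scrambled, so injection and virus were common to both groups. The labels name the CA3 pyramidal neurons as the cells in which Mef2c was to be lowered, and give neither the promoter driving the hairpin, nor an age, nor the time after injection. The parent series deals with anxiety in mice. Since the labels do not say that each library is a separate animal, p-values reflect only how these libraries vary among themselves, which may in part be technical.

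Library totals ranged from 15669620 to 17798090 counts with the Mef2c hairpin and from 14701928 to 15637076 counts with the scrambled hairpin. Levels are given as CPM, a gene's counts per 1e+06 of a library's scaled total. A gene was called where its adjusted p in edgeR's quasi-likelihood test, corrected over all 14393 genes, was under 0.05. Summed markers of CA3 pyramidal neurons stood between 789 and 992 CPM with the Mef2c hairpin and between 800 and 884 CPM with the scrambled hairpin, and 0 of the 7 tested were called. Markers of dentate granule cells (551 to 856 CPM, against 636 to 782 CPM) and of CA1 pyramidal neurons (660 to 827 CPM, against 762 to 844 CPM) were present in all libraries too.

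Mef2c itself (chromosome 13, positions 83504034 to 83667080, plus strand, GRCm38) stood at 111, 131, 121, 163 and 286 CPM in the libraries labelled Mef2c shRNA 1 to 5, against 166, 198, 176, 312 and 175 CPM in scramble 1 to 5. The first 4 lay below every scramble library, while the library labelled Mef2c shRNA 5 lay above 4 of the 5. With a log2 fold change of -0.34 (SE 0.3, edgeR adjusted p = 0.489), the targeted gene did not differ beyond the spread between libraries. Without the library labelled Mef2c shRNA 5 it was -0.642 (edgeR adjusted p = 0.0877). For that reason the calls, medians, spread and list counts are also given without that library.

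Type I interferons signal through a receptor whose kinases, Jak1 and Tyk2, phosphorylate transcription factors, Stat2 among them. With Irf9, Stat2 enters a complex that binds the interferon-stimulated response element, a DNA sequence built on repeated GAAA blocks. Interferon gamma acts mainly at sites of the form TTCNNNGAA, and the immunity GTPases are known as its strong targets. In the brain, microglia, astrocytes, endothelial cells and neurons can all respond, and the response is known from infection, ageing and injury.

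The DNA around the start site is described here as a feature outside expression. The bases before the start are printed for the called genes with an entry and for abundant ones that hold the motif. RefSeq promoters (GRCm38.p6, 250 bases before to 50 bases after the start) were available for 34 of the 45 genes, with 43 promoters in all. The core of the interferon-stimulated response element, searched on either strand as GAAA, any 2 bases and GAAA, was found in 17 of the 34 (50.0%), among them Isg15, Ifit1, Ifit3, Bst2, Oas1a, Rsad2, Stat2, Igtp and Irgm1, against 1079 of the 27025 genes with an entry (3.99%). In Ddx58, Eif2ak2, Ifih1 and Ifitm3, also among the 17, the matches lay only past the start. The motif TTCNNNGAA was found in 10 of the 34 (29.4%), among them Irf1, Gbp7, Igtp and Bst2, against 2582 of all genes (9.55%). In 5 genes, the 250 bases before the start read as follows, 5′ to 3′ on the gene's own strand, with the matches to the response element core in capitals. A match on the opposite strand therefore appears as TTTC, any 2 bases and TTTC.
Stat2, chr10:128270248-128270497, plus strand: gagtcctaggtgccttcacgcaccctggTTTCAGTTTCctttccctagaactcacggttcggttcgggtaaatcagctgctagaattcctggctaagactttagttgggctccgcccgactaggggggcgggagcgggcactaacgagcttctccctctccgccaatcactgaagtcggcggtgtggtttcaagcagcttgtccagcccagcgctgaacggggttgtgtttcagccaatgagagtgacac
Ifit3, chr19:34583279-34583528, plus strand: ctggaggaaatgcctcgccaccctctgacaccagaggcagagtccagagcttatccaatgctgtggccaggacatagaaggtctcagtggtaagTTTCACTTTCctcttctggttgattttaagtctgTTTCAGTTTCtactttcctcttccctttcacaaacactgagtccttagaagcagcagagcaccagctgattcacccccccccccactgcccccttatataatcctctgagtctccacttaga
Bst2, chr8:71537473-71537722, minus strand: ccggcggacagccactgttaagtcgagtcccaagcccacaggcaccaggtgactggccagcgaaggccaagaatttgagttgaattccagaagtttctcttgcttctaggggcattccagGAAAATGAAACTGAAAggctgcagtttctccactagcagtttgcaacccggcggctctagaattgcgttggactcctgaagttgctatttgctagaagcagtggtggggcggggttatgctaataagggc
Trafd1, chr5:121385616-121385865, minus strand: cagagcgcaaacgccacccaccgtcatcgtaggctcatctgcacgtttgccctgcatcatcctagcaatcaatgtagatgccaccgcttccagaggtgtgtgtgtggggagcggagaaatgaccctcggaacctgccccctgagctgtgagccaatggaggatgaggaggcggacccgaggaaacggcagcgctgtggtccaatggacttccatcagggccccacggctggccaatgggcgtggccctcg
Ifi35, chr11:101448162-101448411, plus strand: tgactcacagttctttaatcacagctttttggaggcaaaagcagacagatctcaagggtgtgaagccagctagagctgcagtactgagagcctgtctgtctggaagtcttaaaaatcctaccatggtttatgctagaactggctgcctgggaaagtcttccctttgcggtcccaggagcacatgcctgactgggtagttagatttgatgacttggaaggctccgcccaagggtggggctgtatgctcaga
Counting the start base as 0, the Stat2 match began at position -222, the Ifit3 matches at -156 and -122, and the overlapping Bst2 matches at -130 and -124, the first of them overlapping a TTCNNNGAA match that began at -136. Trafd1 and Ifi35, both called, held no such core in this window, and Ifi35 had a TTCNNNGAA match at 7 bases past the start. A motif match is a description of the letters only, and binding was not measured.

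With the Mef2c hairpin 44 of the 45 interferon-stimulated genes had a higher fitted level than with the scrambled hairpin, but the libraries within each group differed so widely that few of the differences passed the test. Trafd1, Ly6e, Ifi35, Rtp4 and Ifi27 rose, and 0 genes of the 45 fell. Those 5 are 11.1% of the genes followed, against 4.66% of all genes tested that rose and 7.61% that fell. Positive fold changes were found in 97.8% of the 45 and in 52.8% of all genes. The median log2 fold change of the 45 was 1.29, against 0.02 over all genes tested, and it ranged from -0.21 for Adar to 2.38 for Irf7. At an unadjusted p under 0.05, 22 of the 45 were higher (48.9%, against 15.3% of all genes) and 1, Adar, was lower (2.22%, against 14.8%). The 45 were chosen with earlier results of these data known, and most of them varied together across libraries, as given below. These shares therefore do not count 45 independent results.

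**Figure D1:**
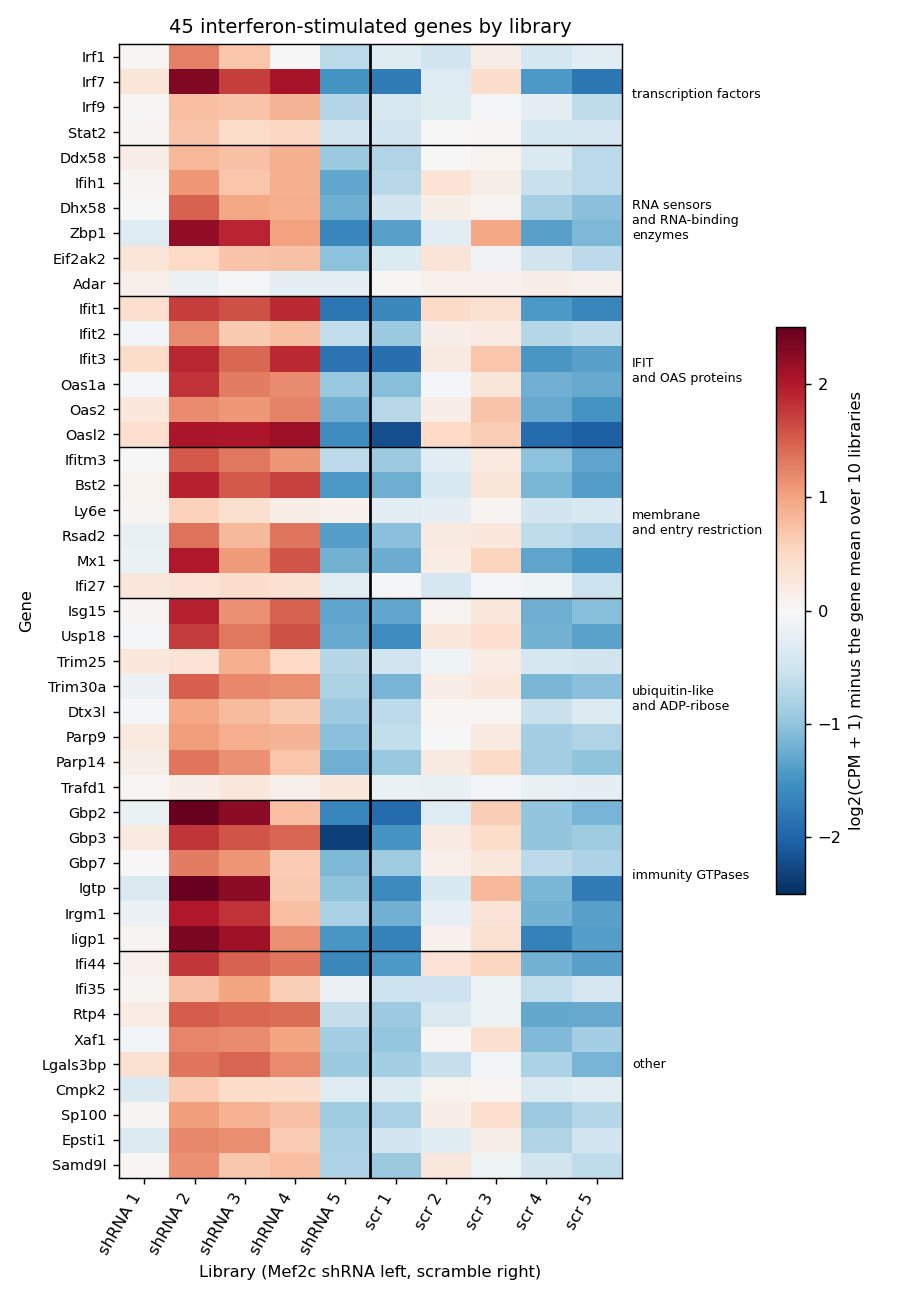
Level of each of the 45 genes in each library, as log2 of CPM plus 1 minus the gene's mean over the 10 libraries; rows are genes grouped by role, columns are libraries with Mef2c shRNA on the left and scramble on the right. The columns Mef2c shRNA 2, 3 and 4 are red in nearly every row, and Mef2c shRNA 5 and scramble 1, 4 and 5 are blue in most rows, so that high and low libraries occur in both groups.

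The same libraries were high for nearly all of the genes. The library labelled Mef2c shRNA 2 was above every scramble library in 44 of the 45 genes, Mef2c shRNA 3 in 44 and Mef2c shRNA 4 in 42, but Mef2c shRNA 1 in 11 and the library labelled Mef2c shRNA 5 in 2. In 41 genes the 3 highest libraries of all 10 were Mef2c shRNA 2, 3 and 4. The library labelled Mef2c shRNA 5 lay below every scramble library in 21 genes and below the scramble median in 33. Among the scramble libraries, numbers 2 and 3 were the 2 highest in 39 genes. In 37 genes the 4 lowest libraries were the one labelled Mef2c shRNA 5 and scramble 1, 4 and 5. Averaged over the 45 genes, with each gene's log2 CPM centred over the 10 libraries, the score was 0.13, 1.53, 1.3, 1.13 and -1.23 in the libraries labelled Mef2c shRNA 1 to 5, against -1.12, 0.06, 0.38, -1.04 and -1.13 in scramble 1 to 5. The groups therefore overlapped, with 4 Mef2c shRNA libraries above the scramble libraries 1, 2, 4 and 5 and the remaining one at the bottom. Summed over the 45 genes the level was 1370 ± 523 CPM with the Mef2c hairpin and 769 ± 180 CPM with the scrambled hairpin (SD, n = 5 each). Without the library labelled Mef2c shRNA 5 the Mef2c shRNA level was 1550 ± 402 CPM (SD, n = 4).

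Spread within a group was wide for these genes under both hairpins. The median SD of log2 CPM between libraries of a group was 1.08 for the 45 genes in the Mef2c shRNA libraries, against 0.187 over all genes tested there. In the scramble libraries it was 0.728, against 0.128 over all genes. Of the 45, 39 were among the 10% of genes with the largest SD in the Mef2c shRNA libraries and 34 in the scramble libraries. The SD was larger in the Mef2c shRNA libraries than in the scramble libraries for 43 genes; the exceptions were Mx1 (1.97, against 2.08) and Oas2 (1.41, against 1.43). Without the library labelled Mef2c shRNA 5 the median SD in the Mef2c shRNA libraries was 0.644, against 0.16 over all genes, 34 genes were among the 10% with the largest SD, and 18 of the 45, not 43, had a larger SD there than in the scramble libraries. The wider spread with the Mef2c hairpin therefore rested on that library, the lowest of all 10 in 21 genes. Leaving out so low a library narrows the spread in itself, and no scramble library was left out to match. With all libraries, Zbp1 had the largest SD in the Mef2c shRNA libraries, 2.76, and Trafd1 the smallest, 0.0959.

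**Figure D2:**
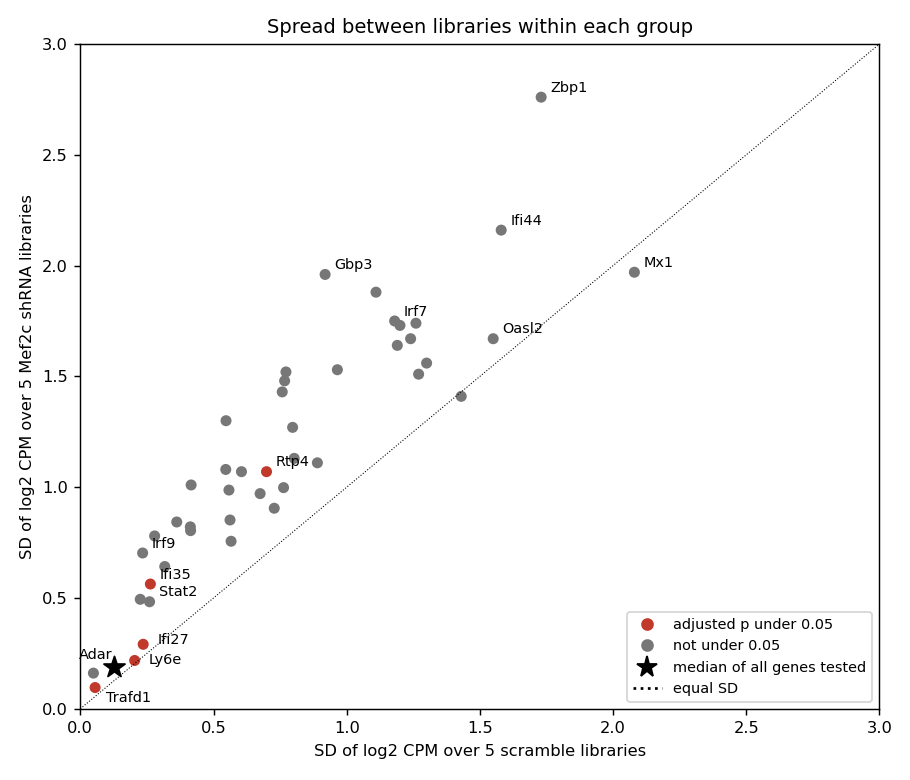
SD of log2 CPM between the 5 Mef2c shRNA libraries (vertical) against that between the 5 scramble libraries (horizontal), 1 point per gene; red points had an edgeR adjusted p under 0.05, the star marks the median of all genes tested (0.187 and 0.128) and the dotted line marks equal SD. Most of the 45 genes lie far above and to the right of the star, while 3 of the 5 called genes, Trafd1, Ly6e and Ifi27, lie near it.

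After centring within each group, 776 of the 990 pairs among the 45 genes had a Pearson correlation over 0.8 across the 10 libraries, with a median of 0.92. The count was 639 pairs, with a median of 0.86, without the library labelled Mef2c shRNA 5. These correlations share the same 10 libraries and are given as a description. Correlated with the mean of the other 44, 37 genes lay over 0.9. The lowest values were 0.05 for Trafd1, 0.14 for Adar, 0.65 for Ifi27 and 0.73 for Ly6e, so 3 of the 5 genes that rose did not follow the library pattern of the rest closely. Ifi35 (0.86) and Rtp4 (0.98) did.

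Leaving out the library labelled Mef2c shRNA 5 raised the number of genes that rose to 19 of 45 (42.2%), against 5.3% of all genes tested then, and the median log2 fold change to 1.579. The 5 genes named above were called in that fit too, with edgeR adjusted p between 0.00256 for Ifi35 and 0.0163 for Ly6e. The 14 added were Irf7, Irf9, Stat2, Ddx58, Dhx58, Eif2ak2, Ifitm3, Bst2, Trim25, Dtx3l, Parp9, Lgals3bp, Epsti1 and Samd9l, with log2 fold changes between 0.718 for Stat2 and 2.679 for Irf7. By role, 3 of the 4 transcription factors, 3 of the 6 RNA sensors and enzymes and 4 of the 6 membrane genes then rose. So did 4 of the 8 genes of the modifier group, Trafd1 included, and 5 of the 9 remaining genes. By contrast, 0 of the 6 IFIT and OAS genes (median log2 fold change 2.03) and 0 of the 6 immunity GTPases (median 2.14) were called. Of the 45, 11 then had every Mef2c shRNA library above every scramble library (24.4%, against 5.07% of all genes). With all 10 libraries that held for 2 genes, Trafd1 and Ly6e (4.44%, against 3.3% of all genes), and for 0 genes in the opposite direction (6.04% of all genes). In either direction, 9.34% of all genes did not overlap. With scramble 4, the highest in Mef2c, left out as well, 12 of the 45 rose (26.7%, against 2.17% of all genes). Without any 1 of Mef2c shRNA 2, 3 or 4 or of scramble 1, 2, 4 or 5, Rtp4 and Ifi27 no longer passed, which left 3 genes called. Over all genes, those fits called 130 of 14501 (without scramble 2) to 314 of 14484 (without Mef2c shRNA 4) higher. With all libraries 671 of 14393 were called higher. Without Mef2c shRNA 1, Ifi27 no longer passed, Lgals3bp rose and Adar fell. When transcript length and GC content were corrected for, 1 gene of the 45 was called, Trafd1 (log2 fold change 0.246, edgeR adjusted p = 0.0395), against 0.702% of all genes called higher in that fit, and the median log2 fold change of the 45 was 1.238. The edgeR adjusted p was then 0.102 for Ly6e, 0.0629 for Ifi35, 0.0935 for Rtp4 and 0.399 for Ifi27.

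**Figure D3:**
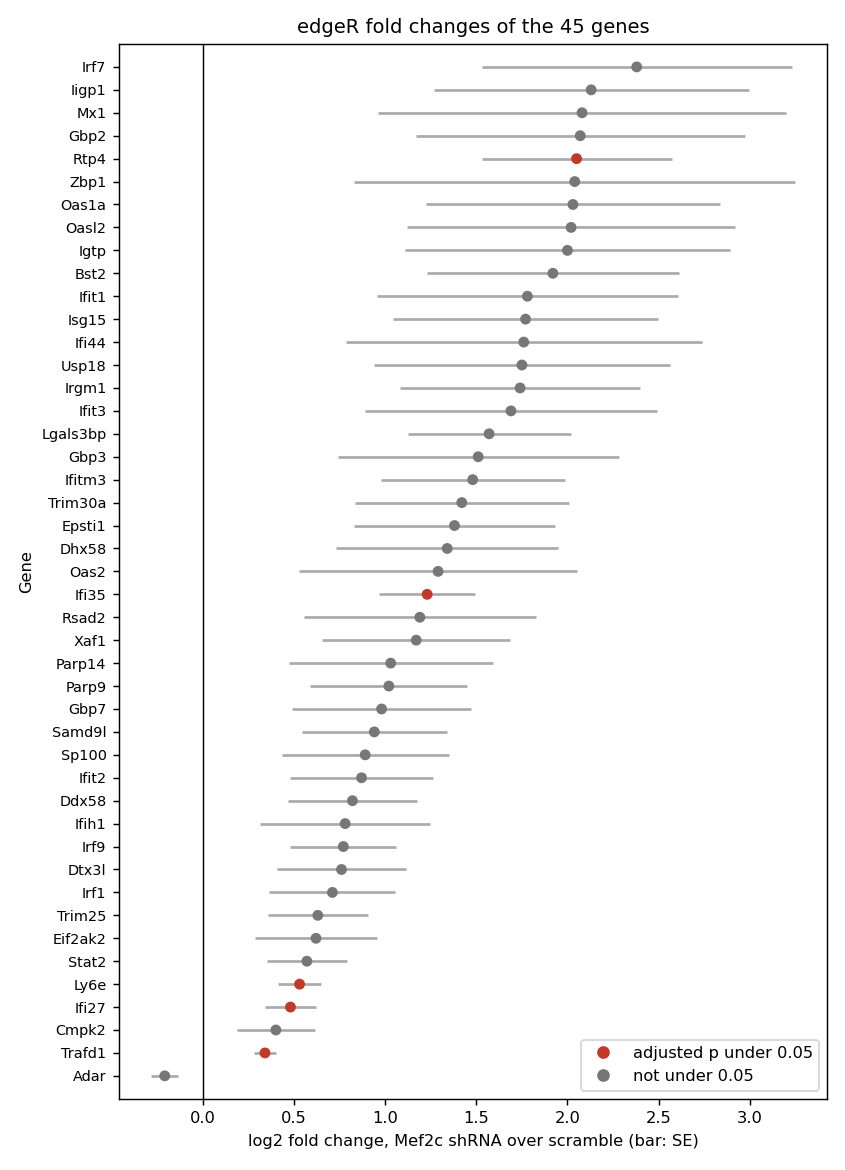
edgeR log2 fold changes (Mef2c shRNA over scramble) of the 45 genes, ordered from highest to lowest, with bars of 1 SE; red points had an adjusted p under 0.05. All but Adar lie right of 0, and the called genes Ly6e, Ifi27 and Trafd1 are among the smallest changes with the shortest bars, while Irf7 at 2.38 has a long bar.

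The transcription factors of the response were 4 in number, and 0 were called. Irf7, which amplifies interferon production, stood at 11.4, 49.0, 32.0, 40.5 and 2.54 CPM in the libraries labelled Mef2c shRNA 1 to 5, against 1.95, 6.97, 12.5, 2.68 and 1.86 CPM in scramble 1 to 5. Its exons overlap those of Phrf1 on the opposite strand, and those of Irf9 overlap Rnf31 on the same strand. The Irf7 log2 fold change of 2.38 (SE 0.851, edgeR adjusted p = 0.102) was the largest of the 45, and its levels spanned 19.3-fold among the Mef2c shRNA libraries. Stat2, a subunit of the complex that binds the response element, stood at 53.0, 83.0, 69.5, 72.8 and 35.6 CPM, against 35.8, 50.7, 51.2, 36.9 and 37.4 CPM. Irf9, the DNA-binding subunit of that complex, stood at 23.2, 38.8, 37.6, 41.9 and 13.2 CPM, against 16.9, 18.2, 22.1, 19.0 and 14.2 CPM. In both, 4 Mef2c shRNA libraries lay above all scramble libraries and the library labelled Mef2c shRNA 5 lay below all of them. Their log2 fold changes were 0.57 (SE 0.218, edgeR adjusted p = 0.113) and 0.77 (SE 0.291, edgeR adjusted p = 0.108). Irf1, a factor shared by both interferon types, ranged from 7.07 to 29.6 CPM (median 12.1) with the Mef2c hairpin and from 8.18 to 13.4 CPM (median 9.42) with the scrambled one, and its exons overlap Gm17334 on the opposite strand.

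Among the 6 RNA sensors and RNA-binding enzymes, 0 were called. Ddx58, which encodes the viral RNA sensor RIG-I, stood at 13.7, 22.3, 20.8, 23.2 and 5.92 CPM in the libraries labelled Mef2c shRNA 1 to 5, against 6.86, 12.2, 13, 9.31 and 7.29 CPM in scramble 1 to 5 (log2 fold change 0.82, SE 0.352). Eif2ak2, the kinase PKR that halts translation on double-stranded RNA, stood at 13, 15.0, 17.7, 17.8 and 4.59 CPM, against 7.94, 13.2, 9.61, 7.24 and 6.19 CPM (0.62, SE 0.337). In both the highest scramble library lay close to the lower end of the first 4 Mef2c shRNA libraries. Ifih1 (the sensor MDA5; 3.02 to 19.9 CPM, against 5.11 to 11.5 CPM) and Dhx58 (LGP2, which modulates both sensors; 0.725 to 10.3 CPM, against 0.962 to 3.45 CPM) had log2 fold changes of 0.78 (SE 0.465) and 1.34 (SE 0.608). Zbp1, a sensor of Z-form nucleic acids that can trigger cell death, ranged from 0 to 13.4 CPM, against 0.201 to 5.04 CPM; the 0 counts were in the library labelled Mef2c shRNA 5 and allow up to 3 counts.

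Adar, the enzyme that edits adenosine to inosine in double-stranded RNA, was the only gene of the 45 with a negative fold change. It stood at 163, 134, 146, 126 and 125 CPM in the libraries labelled Mef2c shRNA 1 to 5, against 151, 161, 161, 166 and 161 CPM in scramble 1 to 5. The first Mef2c shRNA library was among the highest of the 10 and the other 4 were the lowest. The log2 fold change of -0.21 (SE 0.0735, edgeR adjusted p = 0.0807) did not pass. Its long isoform is the one known to be interferon-induced, and gene counts do not separate isoforms. Its exons overlap those of Chrnb2 on the opposite strand.

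The IFIT proteins, which bind foreign RNA at its 5′ end, and the OAS proteins, which sense double-stranded RNA, numbered 6, with 0 called and a median log2 fold change of 1.73. Oasl2, an OAS-like protein, stood at 29.4, 92.7, 90.8, 98.6 and 6.7 CPM in the libraries labelled Mef2c shRNA 1 to 5, against 3.97, 31.1, 33.8, 4.96 and 4.54 CPM in scramble 1 to 5. Scramble 2 and 3 stood above Mef2c shRNA 1, and the library labelled Mef2c shRNA 5 was near the 3 low scramble libraries. Between groups the log2 fold change of 2.02 had an SE of 0.901 (edgeR adjusted p = 0.175). Ifit3, also highest in Mef2c shRNA 2, 3 and 4, stood at 24.4, 67.3, 48.7, 66.1 and 4.17 CPM, against 3.97, 20.5, 28.8, 5.7 and 6.19 CPM (1.69, SE 0.802). Here only scramble 3 stood above Mef2c shRNA 1. Ifit2 stood at 13.2, 32.8, 22.4, 24.1 and 8.7 CPM, against 6.86, 15.5, 16.2, 8.11 and 8.52 CPM (0.87, SE 0.392). Within the scramble group alone Ifit3 spanned 7.25-fold and Oasl2 8.52-fold. Ifit1, Oas1a and Oas2 had log2 fold changes of 1.78, 2.03 and 1.29, with means of 23.9, 5.25 and 5.69 CPM with the Mef2c hairpin and 6.96, 1.28 and 2.32 CPM with the scrambled hairpin.

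Of the 6 genes that act at membranes or restrict viral entry and release, 2 rose. Ly6e, a lipid-anchored surface protein known to block the entry of some viruses (chromosome 15, positions 74955051 to 74959905, plus strand, identifier ENSMUSG00000022587), stood at 183, 262, 229, 195 and 189 CPM in the libraries labelled Mef2c shRNA 1 to 5, against 143, 147, 182, 126 and 133 CPM in scramble 1 to 5. The groups did not overlap, although scramble 3 at 182 CPM came within a few CPM of Mef2c shRNA 1. Its log2 fold change of 0.53 had an SE of 0.117 (edgeR adjusted p = 0.0147). Ifi27, a mitochondrial protein (chromosome 12, positions 103434211 to 103440239, plus strand), stood at 52.2, 55.0, 58.2, 56.0 and 35.5 CPM, against 41.3, 31.7, 41.8, 39.5 and 29.4 CPM. Here 4 Mef2c shRNA libraries lay close together above all scramble libraries, and the library labelled Mef2c shRNA 5 lay among the scramble libraries. Its log2 fold change of 0.48 had an SE of 0.139 (edgeR adjusted p = 0.042).

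Ifitm3, which stiffens membranes against viral fusion, stood at 20.0, 59.6, 51.2, 43.8 and 12.4 CPM in the libraries labelled Mef2c shRNA 1 to 5, against 10.2, 16.3, 23.9, 9.25 and 7.42 CPM in scramble 1 to 5. Mef2c shRNA 2, 3 and 4 stood above all others and the groups overlapped otherwise (log2 fold change 1.48, SE 0.505, edgeR adjusted p = 0.0917). Bst2, the tetherin that holds budding virus at the cell surface, averaged 32.8 ± 22.0 CPM with the Mef2c hairpin and 8.68 ± 5.24 CPM with the scrambled hairpin (SD, n = 5 each; 1.92, SE 0.691, edgeR adjusted p = 0.104). Rsad2 (viperin, which makes a chain-ending nucleotide) averaged 7.28 ± 4.99 CPM, against 3.18 ± 1.73 CPM. Mx1, a dynamin-like antiviral GTPase whose gene is known to be defective in this strain, averaged 4.91 ± 4.19 CPM, against 1.15 ± 1.46 CPM, with 0 counts in scramble 5, which allow up to 3 counts. Per kilobase of the longest transcript, Ly6e (78.5 CPM per kb), Ifi27 (45.1) and Ifitm3 (37.5) had the highest mean levels of the 45 over the 10 libraries, and Mx1 the lowest (0.896).

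The group of ubiquitin-like and ADP-ribose modifiers, in which Trafd1 was placed too, held 8 genes with a median log2 fold change of 1.02. Only Trafd1 rose, and it is not itself such a modifier. Trafd1, a zinc finger protein known to restrain innate immune signalling (chromosome 5, positions 121371725 to 121385632, minus strand, identifier ENSMUSG00000042726), stood at 81.7, 88.9, 95.2, 86.6 and 95.7 CPM in the libraries labelled Mef2c shRNA 1 to 5, against 70.8, 70.0, 75.5, 69.5 and 68.2 CPM in scramble 1 to 5. Every Mef2c shRNA library lay above every scramble library, and the library labelled Mef2c shRNA 5 was the highest, unlike in the other genes. The change was small but had the lowest adjusted p of the 45 (log2 fold change 0.34, SE 0.0604, edgeR adjusted p = 0.00445). It passed with each library left out in turn (edgeR adjusted p between 0.00079 and 0.019).

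Trim25, a ubiquitin ligase that activates RIG-I, stood at 15.3, 16.1, 24.5, 18.1 and 7.25 CPM in the libraries labelled Mef2c shRNA 1 to 5, against 8.61, 11.5, 14.4, 9.05 and 8.8 CPM in scramble 1 to 5 (log2 fold change 0.63, SE 0.274). Dtx3l, a ubiquitin ligase that works as a complex with Parp9, stood at 10.3, 21.8, 19.3, 17.3 and 5.19 CPM, against 6.46, 11.1, 11.0, 6.9 and 8.18 CPM (0.76, SE 0.353). The 2 genes overlapped between groups mainly through the library labelled Mef2c shRNA 5, which was the lowest of all 10. Isg15, the ubiquitin-like modifier itself, averaged 11.5 ± 8.24 CPM with the Mef2c hairpin and 3.35 ± 2.32 CPM with the scrambled hairpin (1.77, SE 0.727, edgeR adjusted p = 0.141). Usp18, which removes Isg15 and dampens receptor signalling, averaged 9.51 ± 6.57 CPM, against 2.82 ± 2.49 CPM (1.75, SE 0.814). Parp9, Parp14 and Trim30a had log2 fold changes of 1.02, 1.03 and 1.42 and were not called. Parp9 and Dtx3l share exon sequence on opposite strands, and since the strand setting of the counting is not given in the sources used here, their reads cannot be fully told apart. In all, 17 of the 45 genes overlap exons of another annotated gene, 7 of them a gene in the count tables (Irf1, Irf7, Irf9, Adar, Dtx3l, Parp9 and Igtp), and the same limit holds for their values.

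The 6 immunity GTPases, which attack membranes around intracellular pathogens, had the largest median log2 fold change of the role groups, 1.87, and 0 were called. Irgm1, a regulator of the family, stood at 16.1, 75.4, 65.9, 31.2 and 9.78 CPM in the libraries labelled Mef2c shRNA 1 to 5, against 7.26, 15.4, 22.9, 7.44 and 6.46 CPM in scramble 1 to 5 (1.74, SE 0.658, edgeR adjusted p = 0.119). Gbp2 stood at 9.44, 69.3, 54.2, 18.6 and 2.78 CPM, against 2.08, 8.38, 17.0, 4.89 and 4.26 CPM (2.07, SE 0.903). Igtp stood at 8.28, 66.7, 55.0, 17.7 and 4.89 CPM, against 2.96, 8.12, 20.0, 4.36 and 2.54 CPM (2.0, SE 0.894). In these 3 genes Mef2c shRNA 2 and 3 stood well above Mef2c shRNA 4, whereas in Irf7, Oasl2 and Ifit3 Mef2c shRNA 4 stood above Mef2c shRNA 3. Iigp1 averaged 24.4 ± 20.0 CPM, against 5.57 ± 4.6 CPM (2.13, SE 0.865, edgeR adjusted p = 0.14). Gbp3 and Gbp7 had log2 fold changes of 1.51 (SE 0.771) and 0.98 (SE 0.493). Reads of close copies within this family, and of Igtp and Irgm2, which share exon sequence, may have been split between them.

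Of the remaining 9 genes, Ifi35 and Rtp4 rose. Ifi35, a partner of the interferon-induced protein Nmi (chromosome 11, positions 101448407 to 101458698, plus strand), stood at 3.4, 5.99, 7.28, 5.3 and 2.78 CPM in the libraries labelled Mef2c shRNA 1 to 5, against 1.88, 1.92, 2.85, 1.74 and 2.13 CPM in scramble 1 to 5. The groups overlapped through 1 pair, since scramble 3 lay just above the library labelled Mef2c shRNA 5. Its log2 fold change of 1.23 had an SE of 0.263 (edgeR adjusted p = 0.0113), and it passed with each library left out in turn (edgeR adjusted p between 0.00256 and 0.0403). Rtp4, a chaperone that brings certain receptors to the cell surface (chromosome 16, positions 23520291 to 23614222, plus strand), stood at 5.65, 15.5, 14.7, 14.4 and 2.84 CPM, against 2.08, 3.52, 4.31, 1.41 and 1.44 CPM. It had the largest change of the called genes, a log2 fold change of 2.05 (SE 0.521, edgeR adjusted p = 0.0351), and 4 of the 5 Mef2c shRNA libraries lay above all scramble libraries.

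Lgals3bp, a secreted glycoprotein that binds galectins, stood at 67.9, 132, 143, 118 and 26.8 CPM in the libraries labelled Mef2c shRNA 1 to 5, against 28.2, 34.4, 49.3, 29.6 and 22.5 CPM in scramble 1 to 5. Its log2 fold change of 1.57 (SE 0.447, edgeR adjusted p = 0.0549) missed the threshold narrowly. Xaf1, linked to cell death, stood at 8.54, 22.3, 21.5, 18.8 and 4.53 CPM, against 4.1, 9.21, 12.2, 3.62 and 4.54 CPM (1.17, SE 0.516). Cmpk2, a mitochondrial nucleotide kinase, stood at 20.2, 41.7, 36.7, 35.9 and 20.8 CPM, against 20.6, 28.2, 27.1, 20.3 and 21.5 CPM (0.4, SE 0.214). In Cmpk2 the libraries Mef2c shRNA 1 and 5 were level with scramble 1, 4 and 5. Ifi44, Sp100, Epsti1 and Samd9l had log2 fold changes of 1.76, 0.89, 1.38 and 0.94, and means of 6.31, 9.47, 3.19 and 9.42 CPM with the Mef2c hairpin and 1.85, 5.1, 1.22 and 4.92 CPM with the scrambled hairpin.

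**Figure D4:**
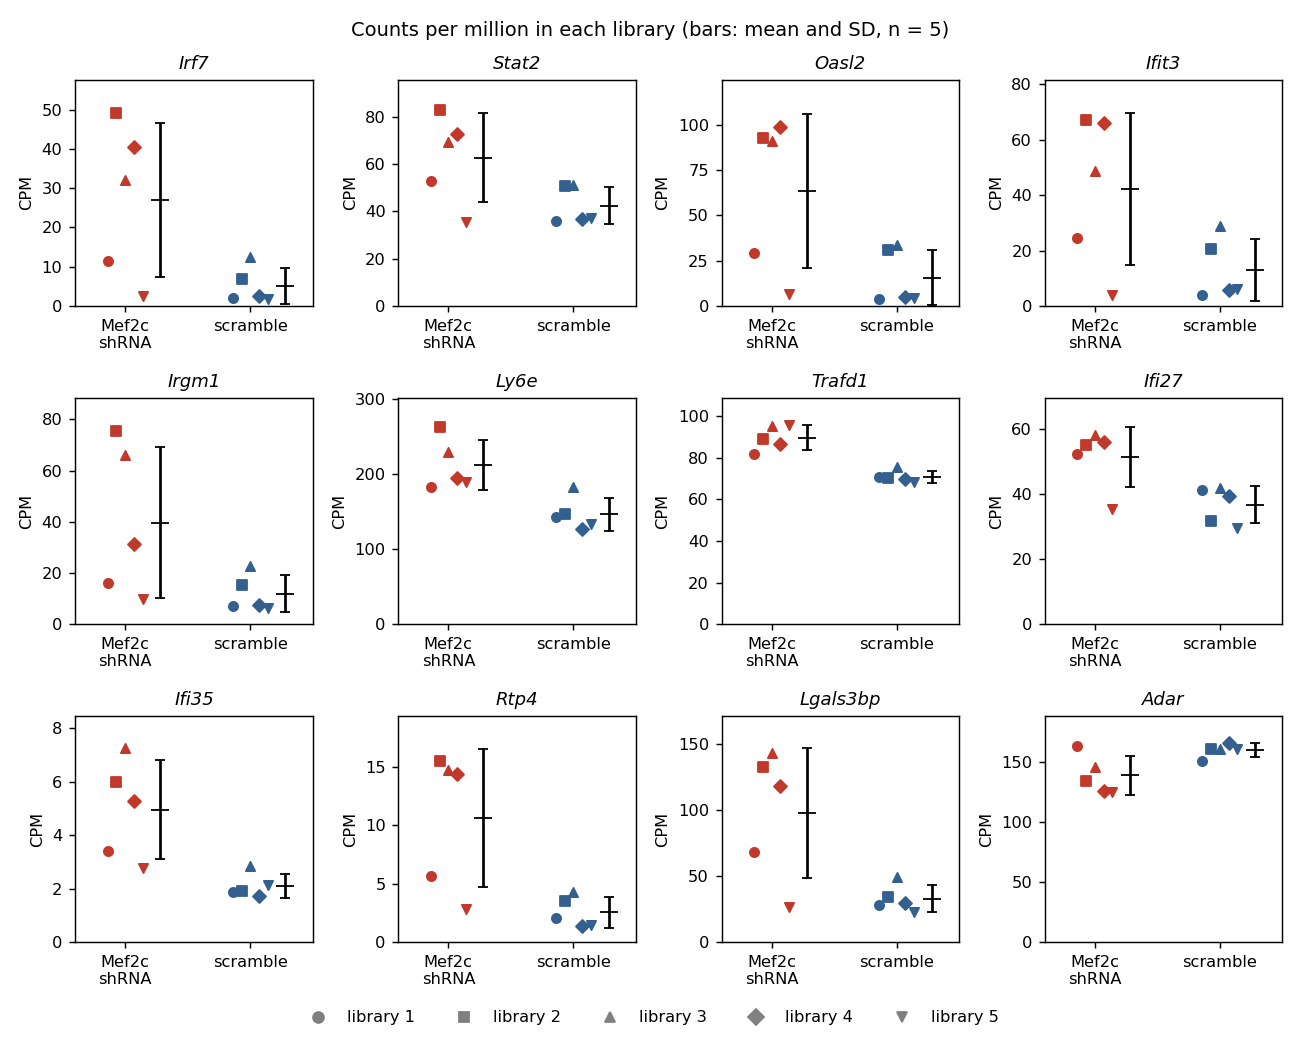
CPM of 12 of the 45 genes in each library, with Mef2c shRNA libraries in red on the left of each panel and scramble libraries in blue on the right; the marker shape is the library number and the bars are mean and SD (n = 5). The wide red spread of Irf7, Oasl2, Ifit3 and Irgm1, with library 5 at the bottom, contrasts with the narrow and separate groups of Trafd1.

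Among other genes of the pathway, the interferons themselves were almost absent. Of the 21 ligands looked for, 9 had a row, each with 1 to 6 counts over all 10 libraries, and 0 passed the filter. Their summed level was 0 to 0.666 CPM in the Mef2c shRNA libraries and 0 to 0.202 CPM in the scramble libraries. All 6 counts of Ifng, the gene of interferon gamma, came from Mef2c shRNA 2. Of 8 receptor chains and kinases tested, Ifngr1, the ligand-binding chain of the interferon gamma receptor, rose to 18.2 ± 2.18 CPM, against 12.7 ± 1.17 CPM with the scrambled hairpin (SD, n = 5 each; log2 fold change 0.52, SE 0.104, edgeR adjusted p = 0.00835), and 0 fell. The type I receptor chains Ifnar1 and Ifnar2 had log2 fold changes of -0.01 (SE 0.0646) and 0.18 (SE 0.09).

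As a base for the list counts with all libraries, 4.66% of all genes tested rose and 7.61% fell. Of 20 upstream sensors and adaptors tested, 2 rose and 0 fell: Tlr7, an endosomal sensor of single-stranded RNA (0.94, SE 0.251, edgeR adjusted p = 0.0289), and Tmem173, the DNA-sensing adaptor STING (0.81, SE 0.239, edgeR adjusted p = 0.0419). Of 14 feedback inhibitors, Socs3, which blocks receptor kinases (1.49, SE 0.358, edgeR adjusted p = 0.0214), and the phosphatase Ptpn6 (1.04, SE 0.31, edgeR adjusted p = 0.0483) rose, while the phosphatase Ptpn2 (-0.27, SE 0.0803, edgeR adjusted p = 0.0415) and the ligase Trim24 (-0.25, SE 0.0744, edgeR adjusted p = 0.0455) fell. Socs3 did not share the library pattern: it stood at 2.18, 8.1, 4.27, 4.43 and 6.82 CPM in the libraries labelled Mef2c shRNA 1 to 5, with library 5 high, against 2.29, 1.09, 2.59, 2.21 and 1.03 CPM in scramble 1 to 5. Of 71 other interferon-induced genes tested, 13 rose, 0 fell and 68 had a positive log2 fold change, with a median of 0.86. They included Mov10, an RNA helicase (27.8 ± 1.17 CPM, against 21.1 ± 1.31 CPM; edgeR adjusted p = 0.00445), and Psme1, a proteasome activator subunit (40.8 ± 7.73 CPM, against 27.8 ± 3.03 CPM; edgeR adjusted p = 0.0144). The 5 interferon-induced chemokines tested had a median log2 fold change of 2.56 and 0 were called. Cxcl10, which draws T cells, stood at 3.66, 35.4, 18.4, 15.1 and 0.483 CPM, against 0.269, 5.5, 5.83, 0.335 and 0.344 CPM (2.56, SE 1.18, edgeR adjusted p = 0.187). Without the library labelled Mef2c shRNA 5, Ifngr1, Tlr7, Tmem173, Socs3, Ptpn6, Mov10 and Psme1 rose again. Ptpn2 (edgeR adjusted p = 0.0527) and Trim24 (edgeR adjusted p = 0.0707) no longer passed. In that fit 10 of 20 sensors and adaptors, 34 of 76 other interferon-induced genes and 2 of 7 chemokines rose, with 0 lower in each list. Of all genes tested then, 5.3% rose.

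Outside the 45, the genes whose levels followed their mean most closely, by Pearson correlation of log2 CPM centred within each group over the 10 libraries, included Ifi208, Slfn8, Trim30d, Cxcl10, Uba7, Slfn2, Phf11d, Ifi213, H2-Q6, Ifi27l2a and Rnf213, with values between 0.97 and 0.997. They were taken from the 13844 genes averaging 1 CPM or more, of which 124 exceeded 0.9, and the median over all genes tested outside the 45 was -0.01.

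Markers of several cell types moved with the 45 genes across libraries, and in bulk tissue fewer cells of a type and less RNA per cell cannot be told apart. Of 14 microglia markers, 4 rose (Selplg, Tmem119, Csf1r and Aif1) and 0 fell, and their score was 0.02, 0.33, 0.52, 0.38 and -0.28 in the libraries labelled Mef2c shRNA 1 to 5, against -0.32, -0.18, 0.05, -0.28 and -0.23 in scramble 1 to 5. Their summed level ranged from 388 to 672 CPM, against 365 to 478 CPM. The highest libraries were again Mef2c shRNA 2, 3 and 4. Of all genes tested, 4.66% were called higher. The microglia genes P2ry12 and Sall1 had log2 fold changes of 0.13 (SE 0.0988) and 0.08 (SE 0.155). In a fit with the microglia score as covariate, an alternative chosen after seeing the data, 1 of the 45 genes was called, Trafd1 (0.325, SE 0.0813, edgeR adjusted p = 0.0483), against 0.75% of all genes called higher in that fit, and the median log2 fold change of the 45 was -0.229. The score lay above every scramble library in Mef2c shRNA 2, 3 and 4. In Mef2c shRNA 1 and the library labelled Mef2c shRNA 5 it lay within the scramble range. Group and score were thus partly confounded, and that fit separates them only in part.

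Lymphocyte markers were low: 18 of 21 had a row, 6 passed the filter and 0 were called. Their summed level ranged from 7.49 to 62.4 CPM in the Mef2c shRNA libraries, against 5.18 to 21.3 CPM in the scramble libraries. The list, and its score, include Ccl5, which was also counted above among the interferon-induced chemokines. Ccl5 stood at 1.48, 13.2, 22.9, 5.77 and 0.785 CPM in the libraries labelled Mef2c shRNA 1 to 5, against 0.202, 1.02, 3.78, 0.603 and 0.275 CPM in scramble 1 to 5. The T cell gene Cd3e stood at 0.128, 2.72, 2.76, 1.57 and 0.302 CPM, against 0.202, 0.703, 0.663, 0.469 and 0.137 CPM. The libraries Mef2c shRNA 2, 3 and 4 were thus the highest for these markers as well. Without the library labelled Mef2c shRNA 5, 3 of 12 lymphocyte markers tested (Cd4, Gzmb and Gzmk) and 7 of 14 microglia markers rose. In that fit 5.3% of all genes rose. The part of lymphocytes in the levels of the 45 genes was not tested, and the microglia fit above separates group from score only in part.

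Choroid plexus markers were lowest in the libraries where the 45 genes were highest within each group. The order was not inverse throughout. Mef2c shRNA 1, highest in these markers, had a higher score of the 45 genes (0.13) than the library labelled Mef2c shRNA 5 (-1.23). The 8 markers summed to 2820, 49.6, 64.5, 53.4 and 680 CPM in the libraries labelled Mef2c shRNA 1 to 5, against 1770, 98.7, 70.9, 2020 and 1020 CPM in scramble 1 to 5, and 0 of 8 were called. Ttr alone, the transthyretin gene that marks this epithelium, ranged from 24.6 to 2440 CPM, against 39.2 to 1770 CPM. The 5 libraries under 100 CPM were Mef2c shRNA 2, 3 and 4 and scramble 2 and 3. Within each group those were also the libraries with the highest scores of the 45 genes. In a fit with the choroid plexus score as covariate, also chosen after seeing the data, Trafd1, Ly6e, Ifi35 and Rtp4 rose and Ifi27 no longer passed (edgeR adjusted p = 0.0887), against 1.76% of all genes called higher in that fit, and the median log2 fold change of the 45 was 0.862. Among other marker lists, 4 of 13 astrocyte markers rose and 1 fell, against 4.66% and 7.61% of all genes. Of 12 endothelial and mural cell markers, 2 rose. Of 5 plasmacytoid dendritic cell markers tested, 1 rose, Runx2 (log2 fold change 0.32, edgeR adjusted p = 0.0351). The 5 include Bst2, one of the 45 genes, and Siglech, also on the microglia list (edgeR adjusted p = 0.104 and 0.0913). Tcf4 of that list had a log2 fold change of -0.26, and Ccr9, Klk1 and Ly6d did not pass the filter. Of 5 markers of border macrophages and monocytes tested, 0 were called. Of the astrocyte markers, 7 rose and 1 fell without the library labelled Mef2c shRNA 5. In that fit 5.3% of all genes rose and 1046 of 14516 fell. Markers of cortical layer neurons (0 of 8 called) summed to 488, 455, 489, 534 and 634 CPM in the libraries labelled Mef2c shRNA 1 to 5, against 518, 535, 501, 625 and 566 CPM in scramble 1 to 5. They were highest in the library labelled Mef2c shRNA 5 and in scramble 4, the 2 libraries highest in Mef2c, and both low in the 45 genes. Leptomeningeal markers (0 of 8 called) summed to 112, 49.0, 43.4, 45.1 and 86.0 CPM, against 68.6, 112, 66.9, 75.8 and 55.3 CPM, and were lowest in Mef2c shRNA 2, 3 and 4. Their part in the levels of the 45 genes was not tested either. Neutrophil markers did not pass the filter (0 of 8 tested), and their sum was 0.99 to 9.96 CPM, with the highest value in the library labelled Mef2c shRNA 5, against 0.687 to 2.22 CPM.

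**Figure D5:**
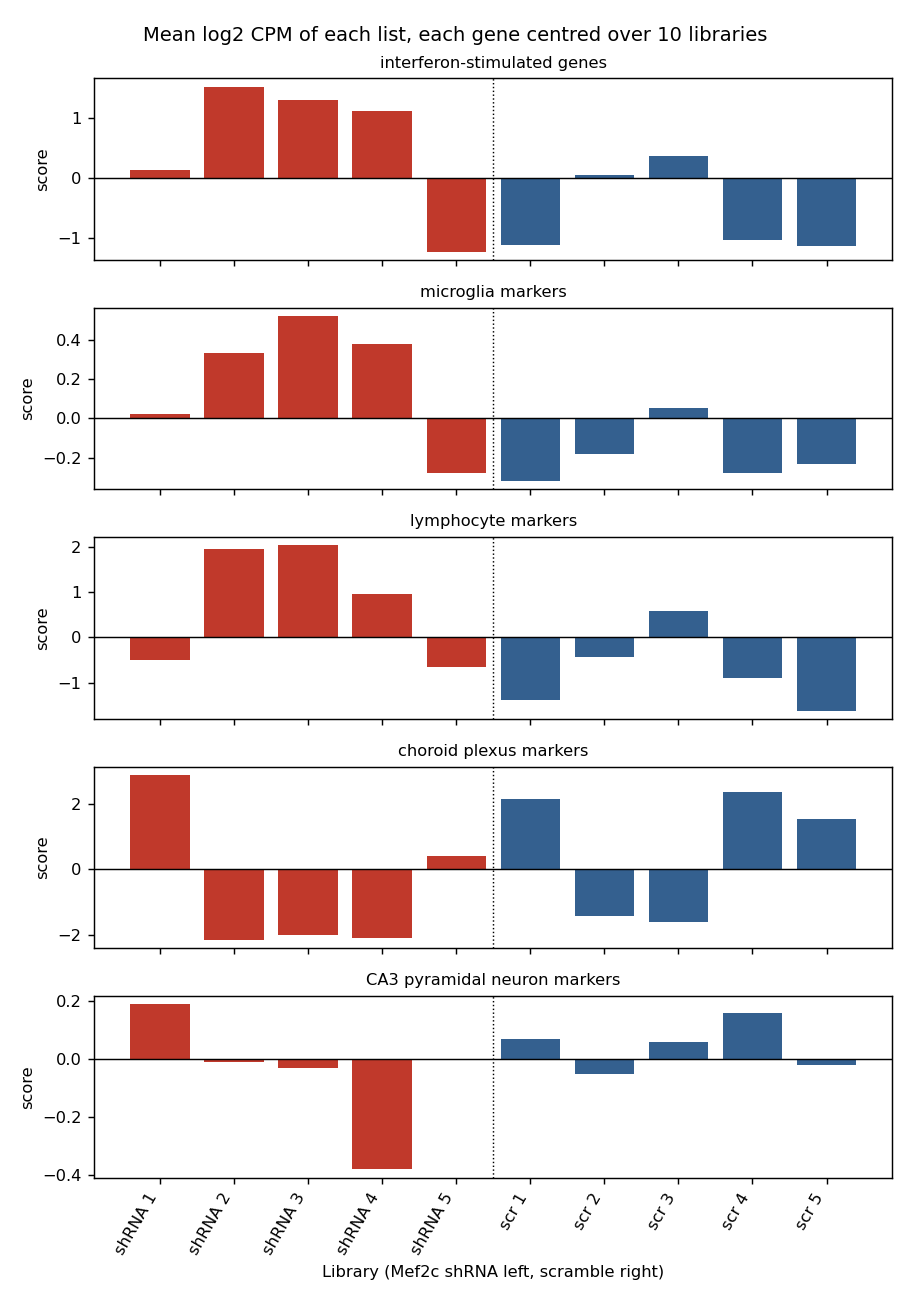
Mean log2 CPM of the 45 genes (top) and of 4 marker lists in each library, each gene centred over the 10 libraries; red bars are Mef2c shRNA libraries on the left, blue bars scramble libraries on the right, and the vertical scale differs between panels. The bars of the 45 genes, microglia and lymphocytes are highest in Mef2c shRNA 2, 3 and 4, where choroid plexus markers are at their lowest, and CA3 pyramidal neuron markers vary least.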

How the data were processed

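RNA was extracted with Trizol and polyA+ libraries were sequenced in pairs of 150-base reads, per the labels' protocols. The deposited files hold whole-number counts per gene, made by the authors with HISAT2, featureCounts and the mm10 build, per the submitters' processing notes; their settings, annotation and strand mode were not given in the sources used here. Library totals were 14701928 to 17798090 counts. Gene names and positions came from GENCODE M21 on GRCm38, and 18421 of 18453 identifiers matched.

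Counts were tested with edgeR 4.0.16 in R 4.3.3 (filterByExpr, TMM scaling, robust quasi-likelihood test, Benjamini-Hochberg adjustment over 14393 genes), with 5 libraries a group and no covariate. The code was tested on simulated data. Scores use log2 CPM with a prior count of 2. Figures were drawn with matplotlib 3.10.9. The genes followed and all lists were chosen with earlier results of these data known.

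Values in every library are given for each called gene and for the 3 most abundant genes of each role group; other genes are given by range, mean or fold change. Of each pathway list, at most 4 genes of the smallest p are given with their values, and genes named beyond these (Ifnar1, Ifnar2, Cxcl10, Cd3e, P2ry12, Sall1, Ttr) were chosen after their values were seen. Promoters were printed for called genes with an entry, then for the most abundant genes with the response element core in the 250 bases before the start; windows with over 30 bases in the gene's own exons and genes on chromosome 18 were passed over. Alternatives were other scaling factors, other filters, DESeq2 1.42.0, limma 3.58.1 (voom with sample weights), length and GC offsets, each library left out, and marker scores as covariates. Libraries that share a number were not treated as pairs: the labels tie them to nothing shared, and the correlation of deviations had to exceed 0.1 in every pair, but did so in 3 of 5 (range -0.11 to 0.4). The labels give no batch. Of the 12 genes outside the 45 with the most similar library pattern, 11 are named, and the other is not reported here.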

Additional observations from a re-analysis of the deposited data

Results flagged for a closer look

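Ifi27 in the Mef2c shRNA libraries had 1 value far from the others: the library labelled Mef2c shRNA 5 stood at 35.5 CPM, and its gap to the next library was 0.736 of the group's range, above the limit of 0.71 for 5 samples. Ifi27 was not called in edgeR with any 1 of Mef2c shRNA 1, 2, 3 or 4 or scramble 1, 2, 4 or 5 left out (adjusted p between 0.0518 and 0.111), and was called without the library labelled Mef2c shRNA 5 (log2 fold change 0.594, adjusted p = 0.00287). The genes given with values in every library were examined in both groups, and chance flags about 1 in 20 groups.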

How the results depend on the processing

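The number of the 45 genes called was 5 with DESeq2 or upper quartile scaling and with a stricter filter, 3 with no filter, 14 with the DESeq2 Wald test (31.1%, against 8.11% of all genes higher), 26 with limma-voom (25 higher, 55.6%, against 10.9% of all genes, and Adar lower), 1 with the length and GC correction and 12 without both the library labelled Mef2c shRNA 5 and scramble 4. Leaving out 1 library each time gave 3 to 19, while 130 to 1529 of all genes were called higher. With no filter, 559 of 18453 genes were called higher. With the replicate number as a block it was 24 (53.3%, against 3.28% of all genes higher), and with block and correction 7 (against 109 of 14381 genes higher). The block is no part of the design here, and 2 libraries correlated best with their own number. The number that did not overlap was 1 with the correction, with or without the block, 11 without both libraries, and 2 to 11 with 1 library left out. The median log2 fold change was 1.105 to 1.579 with 1 library left out. Over all genes, 1766 were called, against 2555 with the DESeq2 Wald test, 3393 with limma-voom, 1313 with the replicate block, 237 with the correction, 204 with block and correction, 1029 without both libraries, and 631 (without scramble 2) to 3305 (without Mef2c shRNA 1) with 1 library left out. With upper quartile scaling 849 were higher and 981 lower, against 671 and 1095.

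Marker covariates were chosen after seeing the data. With the choroid plexus score 956 genes and 4 of the 45 were called. With the microglia score 371 genes and 1 of the 45 were called, and the median turned to -0.229. The log2 fold change then turned negative, with 0 past the threshold, for 35 genes: Irf1 -0.088, Irf9 -0.064, Stat2 -0.012, Ddx58 -0.192, Ifih1 -0.528, Dhx58 -0.441, Zbp1 -1.61, Eif2ak2 -0.266, Ifit1 -0.432, Ifit2 -0.092, Ifit3 -0.422, Oas1a -0.132, Oas2 -0.589, Oasl2 -0.293, Bst2 -0.105, Rsad2 -0.74, Mx1 -0.724, Isg15 -0.246, Usp18 -0.448, Trim25 -0.165, Trim30a -0.12, Dtx3l -0.306, Parp9 -0.222, Parp14 -0.458, Gbp2 -0.487, Gbp3 -0.813, Gbp7 -0.428, Igtp -0.229, Iigp1 -0.261, Ifi44 -0.95, Xaf1 -0.236, Cmpk2 -0.145, Sp100 -0.349, Epsti1 -0.472 and Samd9l -0.113. Mef2c turned to 0.069. The cause of these differences was not tested. Since the microglia score was itself highest in Mef2c shRNA 2, 3 and 4, that fit separates group from score only in part. Depth limits the rarest genes: the lowest count in a library was 0 for Zbp1 and Mx1, 3 for Ifi44, 5 for Oas1a and 6 for Oas2.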
